A study of Mus musculus with 8 samples.

Results

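RNA polymerase I (Pol I) is the enzyme that transcribes the repeated ribosomal RNA genes (rDNA) in the nucleolus, and the genes described here encode its subunits and the factors that load it on rDNA or stop it. The set was given by name and held Polr1a, Polr1b, Polr1c, Polr1d, Polr1e, Ubtf, Rrn3, Taf1b, Taf1d and Ttf1. All 10 symbols were found, each as 1 row, among the 54146 gene identifiers of both count tables. Members were picked by name and not by a cut on measured values, but with earlier results of these data known. The cells were mouse embryonic stem (mES) cells of the inner cell mass type, grown on gelatin with mouse embryonic fibroblast (MEF) feeder cells in LIF/2i medium for 2 days, either untreated (Control) or treated with CX-5461, a small molecule inhibitor of Pol I transcription. The culture methods name the line E14 wild type, and the dose and time of CX-5461 are not given in the labels of these samples. The labels list 4 samples per condition, but the barcodes of a condition carry serial numbers and no sample, so each condition was 1 library. No comparison below therefore has a replicate check, no p-value was computed, and the intervals printed are exact 95% intervals for counting error only.

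Pol I initiates when the HMG-box factor UBTF and the selectivity complex SL1 (TBP with the TAF1 proteins) sit on the rDNA promoter and RRN3, the factor known as TIF-IA, brings in the polymerase. TTF1 binds terminator elements at the end of the transcribed rDNA unit. POLR1A and POLR1B form the catalytic core, POLR1C and POLR1D are also subunits of Pol III, and POLR1E is the Pol I specific subunit known as PAF53. ES cells divide fast and have a high demand for ribosomes, which makes the level of this machinery of interest in these cells.

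The measurement was 10x Genomics 3′ single-cell RNA-seq, in which each unique molecular identifier (UMI) stands for 1 captured transcript molecule, so levels of different genes were compared without scaling by gene length. After barcodes under 500 UMIs or above 0.2 mitochondrial were set aside, 3767 cells remained in the Control and 4697 in the CX-5461 library. By markers, 2361 Control and 3383 CX-5461 cells were ES-like, and 221 and 166 cells were fibroblast-like and are called feeder cells here. The ES-like cells lay in different clusters in the libraries, clusters 0 and 2 in Control and clusters 5 and 8 in CX-5461, and their median depth was 15847 and 14664 UMIs. The mitochondrial share of their UMIs was 1.97% in Control and 4.71% in CX-5461, and the share from 89 ribosomal protein genes was 30.0% and 24.2%. The 12 ES markers summed to 7698 and 8572 CPM (UMIs per 1000000 UMIs of the class) in ES-like cells against 538 and 435 CPM in feeder cells, and the 20 fibroblast markers to 110 and 188 CPM against 7913 and 8906 CPM. On library totals the median gene was higher by 0.35 on the log2 scale in CX-5461 ES-like cells and by 0.16 in CX-5461 feeder cells, so ratios below are given relative to the median gene unless totals are named.

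Promoters of members are shown first, because members with low ratios to Control in ES-like cells and members near the median gene turned out to share a sequence there. A window of 300 bases around the RefSeq start (250 before, 50 after) was matched for 10 of 10 members on build GRCm38.p6, with 6 windows for Ubtf and 1 for every other member. Both strands were searched for the E-box CACGTG, the ETS motif CCGGAAGT, the NRF1 core GCGCATGC, the TATA box TATAAA and the CCAAT box, and no match in a member overlapped a match of another motif. The ETS motif was present in 4 of 10 members, Rrn3, Ttf1, Polr1e and Polr1c, and in 3.89% of the 32851 windows of all genes. Here members are counted as genes and the rest as windows. Member windows held a median of 15 CG pairs against 7 in all windows, and the ETS motif itself holds a CG. All windows were not matched to the members for this, so the shares do not set the members apart from other CG-rich promoters. The E-box was in Rrn3 alone among the members, with 2 copies, against 7.15% of all windows with at least 1 copy and 0.594% with 2 or more. The TATA box was in no member window and in 13.6% of all windows, the CCAAT box was in Polr1a, Ttf1 and Ubtf and in 37.4%, and the NRF1 core was in Ubtf and in 2.71%. The windows with an ETS motif are printed on the strand of the gene, with all matches in capitals, for Rrn3 (chr16:13780449-13780748, + strand), Ttf1 (chr2:29060013-29060312, + strand), Polr1e (chr4:45018359-45018658, + strand) and Polr1c (chr17:46247996-46248295, - strand). In Rrn3 the capitals mark the pair of E-boxes and then an ETS motif, in Ttf1 a CCAAT box followed by 2 ETS motifs, and in Polr1e and Polr1c 1 ETS motif each.
Rrn3: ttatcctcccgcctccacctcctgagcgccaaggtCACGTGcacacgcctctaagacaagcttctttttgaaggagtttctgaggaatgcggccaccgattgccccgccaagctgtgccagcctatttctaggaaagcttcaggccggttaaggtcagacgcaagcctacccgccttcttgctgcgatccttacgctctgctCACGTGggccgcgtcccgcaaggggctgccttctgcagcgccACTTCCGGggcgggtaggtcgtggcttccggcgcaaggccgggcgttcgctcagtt
Ttf1: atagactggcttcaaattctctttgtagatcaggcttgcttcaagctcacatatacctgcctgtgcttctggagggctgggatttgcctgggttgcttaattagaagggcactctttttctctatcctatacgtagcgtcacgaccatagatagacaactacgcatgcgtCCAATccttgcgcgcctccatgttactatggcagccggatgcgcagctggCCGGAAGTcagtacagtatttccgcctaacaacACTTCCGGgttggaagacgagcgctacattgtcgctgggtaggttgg
Polr1e: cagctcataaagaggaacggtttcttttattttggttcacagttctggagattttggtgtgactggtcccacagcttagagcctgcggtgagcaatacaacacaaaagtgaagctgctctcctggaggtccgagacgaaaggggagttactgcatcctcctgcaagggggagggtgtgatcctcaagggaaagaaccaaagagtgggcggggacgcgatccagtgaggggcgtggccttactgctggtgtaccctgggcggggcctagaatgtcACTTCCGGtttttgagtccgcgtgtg
Polr1c: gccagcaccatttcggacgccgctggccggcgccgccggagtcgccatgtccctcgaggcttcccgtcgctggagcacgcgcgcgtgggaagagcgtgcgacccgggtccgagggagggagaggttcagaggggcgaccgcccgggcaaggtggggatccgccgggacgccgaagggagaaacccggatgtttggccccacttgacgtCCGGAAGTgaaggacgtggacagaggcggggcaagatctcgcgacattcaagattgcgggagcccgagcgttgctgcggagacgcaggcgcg

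All members were detected in ES-like cells of both libraries, and their levels covered a wide range. In Control ES-like cells the order from high to low was Polr1d (390.45 CPM, 384 to 397), Taf1d (210 CPM, 206 to 214), Polr1c (123 CPM, 120 to 127), Ttf1 (67.8 CPM, 65.3 to 70.3), Ubtf (63.7 CPM, 61.3 to 66.2), Rrn3 (57.1 CPM, 54.8 to 59.5), Polr1a (40.0 CPM, 38.1 to 41.9), Polr1e (17.8 CPM, 16.5 to 19.1), Taf1b (12.6 CPM, 11.5 to 13.7) and Polr1b (9.09 CPM, 8.19 to 10.1). Ttf1 and Ubtf were the neighbours whose intervals overlapped. The median gene with at least 200 UMIs in ES-like cells stood at 11.2 CPM in Control and 14.9 CPM in CX-5461, so Polr1d was 34.8 times the median gene in Control and Polr1b was 0.810 times it. In CX-5461 ES-like cells Polr1d stayed first at 431 CPM (425 to 437). Polr1c (151 CPM, 148 to 155) and Taf1d (148 CPM, 144 to 151) followed with overlapping intervals, as did Polr1a (52.5 CPM, 50.5 to 54.6) and Ubtf (50.8 CPM, 48.8 to 52.8) after them. Polr1a thus moved from rank 7 to rank 4 among the members, and Rrn3 from rank 6 to rank 7.

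**Figure D1:**
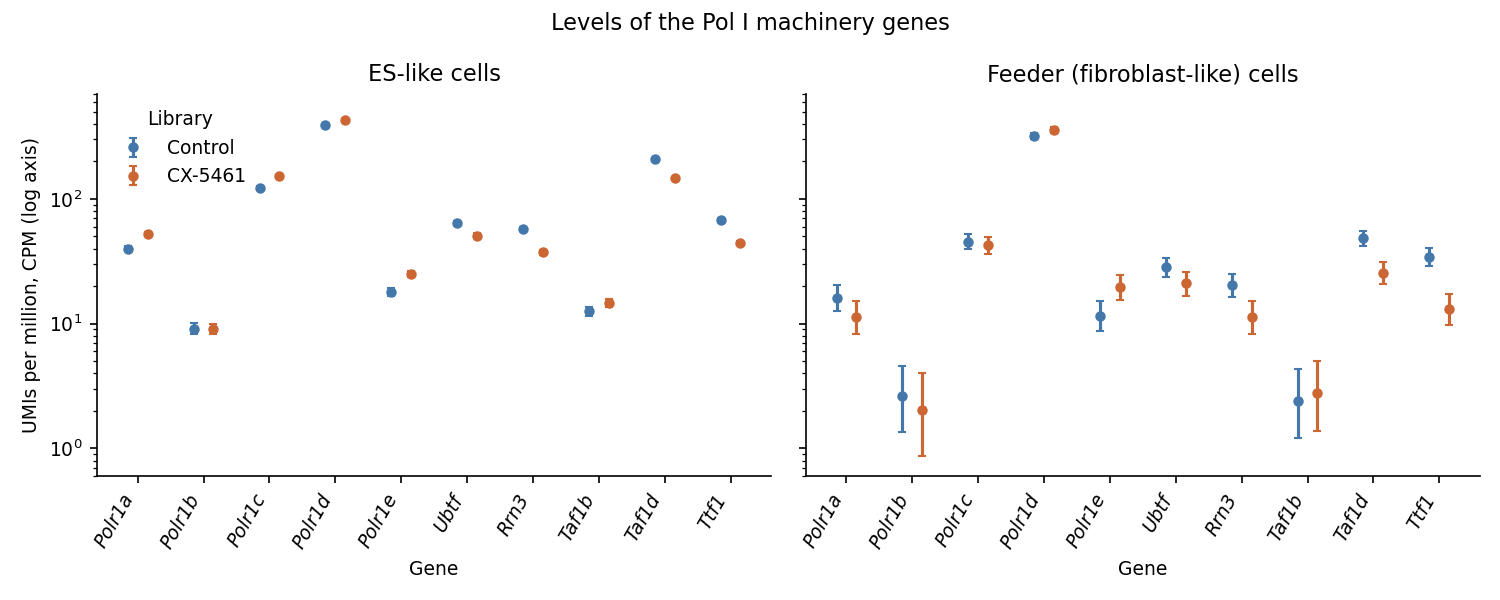
Level of each member in CPM (log axis) in ES-like cells on the left and feeder cells on the right, with Control in blue, CX-5461 in orange and bars for exact 95% Poisson intervals. Polr1d is the highest member in all 4 groups of cells, and Ubtf, Rrn3, Taf1d and Ttf1 lie lower in CX-5461 than in Control in both kinds of cells.

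In ES-like cells the Pol I machinery was lower in CX-5461 than the median gene, and this came from the initiation and termination factors more than from the polymerase subunits. Summed over the 10 members, the level was 992 CPM (982 to 1001) in Control and 963 CPM (955 to 972) in CX-5461, a log2 ratio of -0.40 (-0.42 to -0.38) relative to the median gene. A cell held a median of 16 UMIs of the members in Control and 14 in CX-5461, and only 7 of 2361 and 11 of 3383 cells held none. Grouped by role, a grouping made after the values were seen, the 5 subunits went from 581 to 669 CPM (log2 -0.15, -0.17 to -0.13) and the 5 other factors from 411 to 294 CPM (log2 -0.84, -0.87 to -0.80). The factors made up 41.5% of the members' UMIs in Control and 30.6% in CX-5461. Of the 10 members, all of which passed the filter of 200 UMIs, 8 lay below the median gene, 4 were lower by at least 0.5 on the log2 scale and 0 were higher by that much. Among all 11120 genes tested, 19.0% were lower and 22.2% higher by that much. The members' median was -0.29 against 0 for all genes by construction, and it turned to 0.07 on library totals, where the median over all genes was 0.35. There 5 members were higher and 4 lower with intervals apart from 0. The share of all genes with such intervals was not counted, so these counts do not set the members apart. On totals the summed ratio was -0.04 (-0.06 to -0.02), so the size of the difference depended on the scaling.

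Among the catalytic subunits, Polr1a (chr6:71909053-71984935, + strand), the largest subunit, had 1649 UMIs or 40.0 CPM in Control and 2604 UMIs or 52.5 CPM in CX-5461 ES-like cells. This was higher on totals by 0.39 (0.30 to 0.48) and did not differ from the median gene beyond counting error (0.04, -0.05 to 0.13). Polr1b (chr2:129100995-129126594, + strand), the other catalytic subunit, had 375 UMIs (9.09 CPM) and 449 UMIs (9.06 CPM), the same level on totals within counting error (-0.00, -0.21 to 0.20) and below the median gene by a log2 ratio of -0.36 (-0.56 to -0.16). Both core subunits were thus separated in their ratios by more than their intervals, with Polr1a level with the median gene and Polr1b below it. For Polr1c (chr17:46243920-46248054, - strand), the counts were 5085 and 7508 UMIs (123 and 151 CPM), and its ratio was -0.06 (-0.11 to -0.01) relative to the median gene but 0.30 (0.25 to 0.35) on totals. Polr1d (chr5:147077050-147111597, + strand) had 16114 and 21356 UMIs (390.45 and 431 CPM), with a ratio of -0.21 (-0.24 to -0.18) relative to the median gene but 0.14 (0.11 to 0.17) on totals. These subunits shared with Pol III thus changed sign with the scaling. Polr1e (chr4:45018583-45036565, + strand) had 735 and 1251 UMIs (17.8 and 25.2 CPM), and with 0.15 (0.02 to 0.28) it was the 1 member whose interval lay above the median gene, with 59.8% of the tested genes below it. That interval overlapped the interval of Polr1a, and it spanned 0 with a TMM factor (-0.03 to 0.24), after thinning of cells to 3100 UMIs (-0.04 to 0.59) and within S and G2/M cells, among other alternatives.

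The factors that act at the promoter and the terminator held the lowest ratios. Rrn3 (chr16:13780708-13814839, + strand) had 2357 UMIs or 57.1 CPM in Control and 1845 UMIs or 37.2 CPM in CX-5461 ES-like cells, a log2 ratio of -0.97 (-1.06 to -0.88) relative to the median gene. Only 6.46% of the 11120 tested genes had a lower ratio. Ttf1 (chr2:29060262-29087656, + strand) followed with 2797 and 2201 UMIs, 67.8 and 44.4 CPM, and a ratio of -0.96 (-1.05 to -0.88). Its interval and that of Rrn3 overlapped, so the order of these 2 genes was not resolved. Taf1d (chr9:15306214-15316991, + strand), a subunit of SL1, had 8663 and 7314 UMIs, 210 and 148 CPM, and a ratio of -0.86 (-0.91 to -0.82). Ubtf (chr11:102304560-102319742, - strand) had 2630 and 2519 UMIs, 63.7 and 50.8 CPM, and a ratio of -0.68 (-0.76 to -0.60). Each of these 4 genes was also lower on library totals, with log2 ratios of -0.62 (-0.71 to -0.53) for Rrn3, -0.61 (-0.69 to -0.53) for Ttf1, -0.51 (-0.55 to -0.46) for Taf1d and -0.33 (-0.41 to -0.25) for Ubtf. Taf1b (chr12:24498359-24558539, + strand), another SL1 subunit, stood apart from the other factors with 520 and 721 UMIs, 12.6 and 14.5 CPM, and a ratio of -0.15 (-0.31 to 0.02). Its ratio turned to 0.21 (0.04 to 0.37) on totals and to 0.45 (0.03 to 0.88) relative to the median gene after thinning. The thinned counts held Taf1b in only 67 of 2344 Control cells, at 9.36 CPM. The ETS motif printed above was thus held by members with low ratios, Rrn3 and Ttf1, and by Polr1c and Polr1e, which lay near the median gene or above it.

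**Figure D2:**
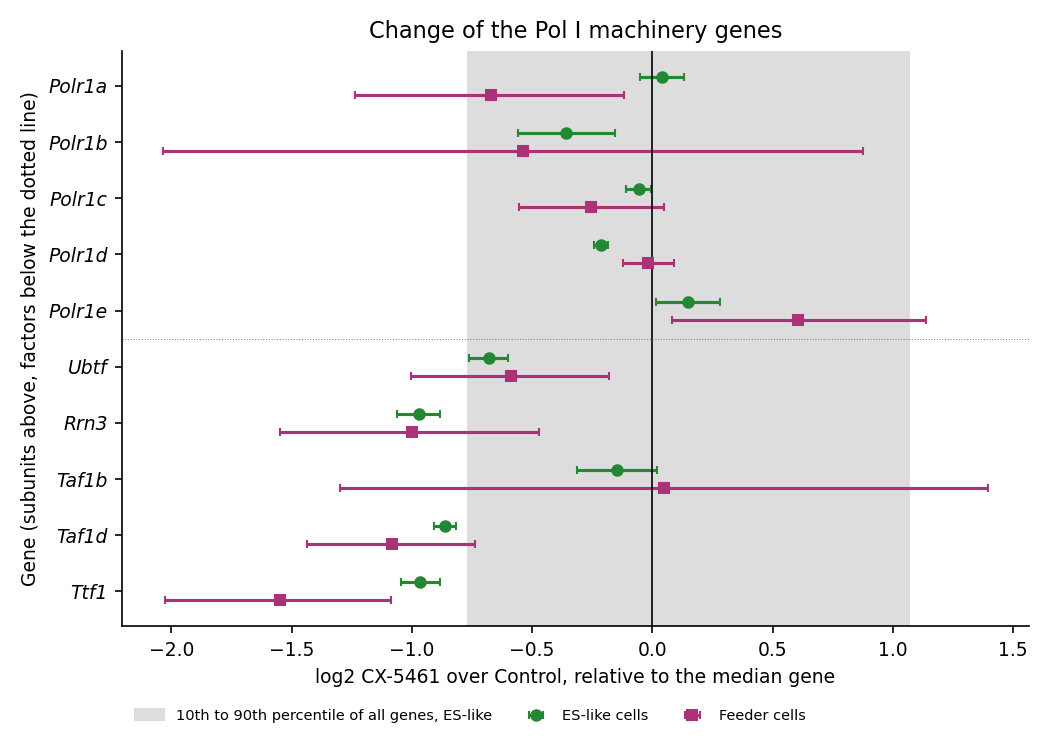
log2 ratio of CX-5461 over Control relative to the median gene (x axis) for each member (y axis) in ES-like cells (green circles) and feeder cells (purple squares), with exact 95% counting intervals; the grey band spans the 10th to 90th percentile of all genes in ES-like cells, -0.77 to 1.07. In ES-like cells Rrn3, Ttf1 and Taf1d lie left of the band, and the subunits lie within it, from -0.36 (Polr1b) to 0.15 (Polr1e).

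The share of cells with at least 1 UMI followed the levels once depth was made equal. At the deposited depth Rrn3 was detected in 56.7% of Control and 40.0% of CX-5461 ES-like cells, Ttf1 in 62.1% and 45.8%, Ubtf in 61.6% and 49.3% and Taf1d in 92.2% and 84.2%. After each cell was thinned to 3100 UMIs, which kept 2344 Control and 3366 CX-5461 cells, these shares were 17.3% (15.8 to 18.9) and 11.1% (10.1 to 12.3) for Rrn3, 18.7% (17.1 to 20.3) and 13.3% (12.2 to 14.5) for Ttf1, 17.6% (16.1 to 19.2) and 14.7% (13.5 to 15.9) for Ubtf and 46.4% (44.4 to 48.5) and 37.3% (35.7 to 39.0) for Taf1d. The intervals did not overlap for these 4 genes. The opposite order was seen for Polr1a (11.3%, 10.0 to 12.6, against 15.1%, 13.9 to 16.4), Polr1c (31.2%, 29.4 to 33.1, against 36.1%, 34.5 to 37.8), Polr1e (5.29%, 4.42 to 6.28, against 7.40%, 6.54 to 8.33) and Taf1b (2.86%, 2.22 to 3.62, against 4.66%, 3.98 to 5.43). For Taf1b the higher share in CX-5461 was not seen at the deposited depth (19.2% in Control and 18.9% in CX-5461). Thinning to 5000 UMIs gave 6.19% of 2326 Control and 7.17% of 3207 CX-5461 cells for it, and each thinning was a random draw. Polr1b (2.86% and 2.56%) and Polr1d (70.4% and 72.8%) had overlapping intervals after thinning to 3100 UMIs. These shares follow totals and are not centred on the median gene. How many of all genes had detection intervals that did not overlap was not counted. No class of cells here should lack these genes, so no background share could be measured for free RNA.

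**Figure D3:**
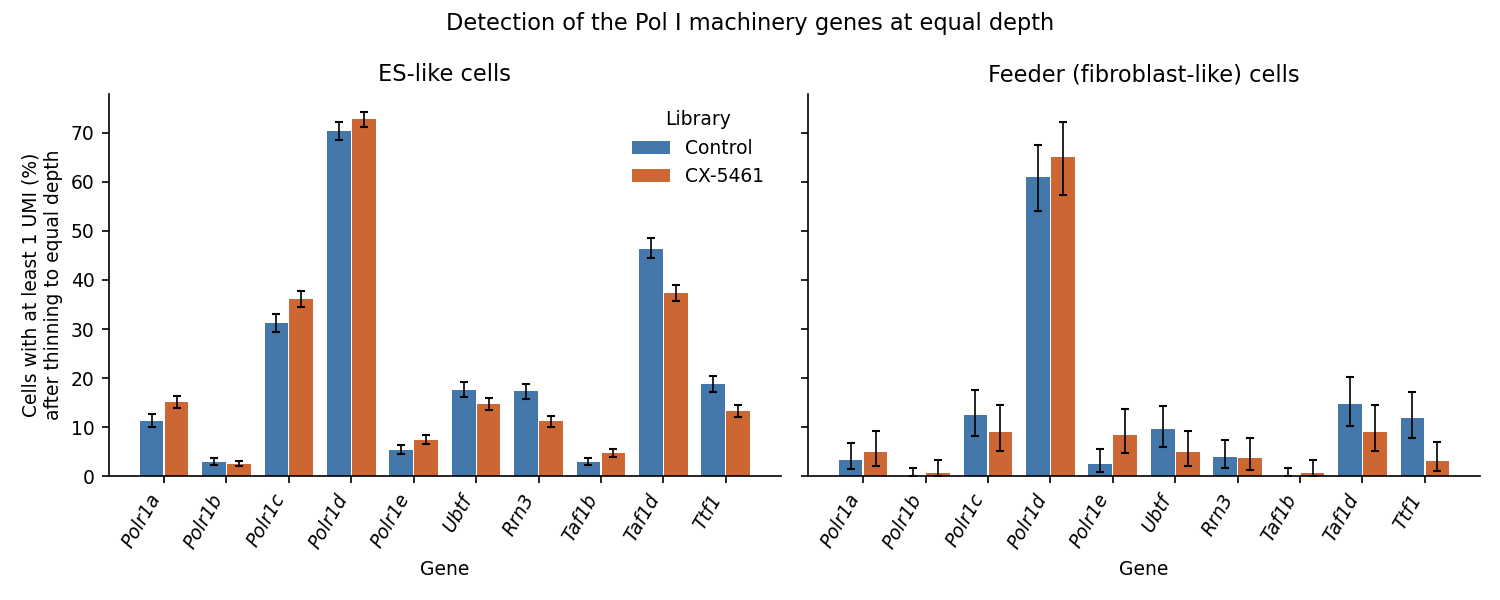
Percentage of cells with at least 1 UMI of each member after thinning every cell to 3100 UMIs, in ES-like cells (left) and feeder cells (right), with Control in blue, CX-5461 in orange and bars for exact Clopper-Pearson 95% intervals. In ES-like cells the share is lower in CX-5461 for Ubtf, Rrn3, Taf1d and Ttf1 and higher for Polr1a, Polr1c, Polr1e and Taf1b, while most feeder intervals overlap.

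In feeder cells Ttf1, Taf1d, Rrn3 and Ubtf were also lower than the median gene in CX-5461, with wide intervals from few cells. Summed over members the feeder level was 530.04 CPM (509 to 552) in Control and 504 CPM (483 to 527) in CX-5461, a ratio of -0.23 (-0.32 to -0.15) relative to the median gene. Ttf1 had 157 and 52 UMIs (34.4 and 13.2 CPM), a ratio of -1.55 (-2.03 to -1.09), and only 2.56% of the 8479 genes tested in feeder cells had a lower one. Taf1d had 221 and 101 UMIs (-1.08, -1.44 to -0.74), Rrn3 93 and 45 UMIs (-1.0, -1.55 to -0.47), Polr1a 74 and 45 UMIs (-0.67, -1.24 to -0.12) and Ubtf 129 and 83 UMIs (-0.59, -1.0 to -0.18). Polr1e was the 1 member above the median gene among those that passed, with 53 and 78 UMIs (0.60, 0.08 to 1.14). Polr1d, with 1465 and 1401 UMIs, made up 60.5% of the members' UMIs in Control and 70.3% in CX-5461 feeder cells and lay at the median gene (-0.02, -0.12 to 0.09), as did Polr1c within its interval (-0.25, -0.56 to 0.05). Polr1b (12 and 8 UMIs) and Taf1b (11 and 11 UMIs) did not reach the minimum of 50 UMIs. Of the 8 members that passed, 5 were lower by at least 0.5 and 1 was higher, against 19.6% and 18.7% of all genes tested. On library totals the feeder sum was -0.07 (-0.16 to 0.01), and after thinning it was 0.01 (-0.22 to 0.25). Macrophage markers summed to 240 CPM in the Control feeder class, with 8 of 8 detected, and to 17.5 CPM in the CX-5461 feeder class, with Ptprc, C1qa and C1qb at 0, and ES markers stood at a median of 6.02% and 2.82% of their ES-like level, with Klf4 highest at 149% and 140%; the part of either in these ratios was not tested, apart from the subtraction of ES RNA, which gave a sum of -0.20.

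Set against each other, the 2 classes of cells differed in how much of the machinery they held. Relative to the median gene with at least 200 UMIs, feeder cells held less than ES-like cells of the same library, with a log2 ratio of -0.65 (-0.71 to -0.59) in Control and -0.57 (-0.64 to -0.51) in CX-5461 for the sum. In each library 8 of 10 members were lower by at least 0.5 and 0 higher, against 35.0% and 34.2% of genes tested in Control and 36.7% and 35.4% in CX-5461. The lowest in Control was Taf1b (12.6 CPM in ES-like and 2.41 CPM in feeder cells, -2.14, -3.15 to -1.28), followed by Taf1d (210 and 48.4 CPM, -1.87, -2.06 to -1.67) and Polr1b (-1.54, -2.50 to -0.72). The minimum of 200 UMIs counted both classes together, and in Control feeder cells held 4569450 UMIs against 41270626 in ES-like cells. Genes could thus pass on ES-like UMIs alone, as Taf1b (11 feeder and 520 ES-like UMIs) and Polr1b (12 and 375) did. This favours genes that are high in ES-like cells. Polr1d was at the median gene in Control (390.45 and 321 CPM, -0.03, -0.11 to 0.05), and Polr1e lay at -0.37 (-0.80 to 0.04). Lower levels in feeder cells were not particular to the members. Of the lists described below, the other Pol I subunits summed to -1.17 in Control and the Pol II subunits to -0.94. All 7 Pol II subunits were lower by at least 0.5. Pol III subunits summed to -0.24 in Control, while rDNA-overlapping genes (0.48) and p53 targets (1.81) were higher. In CX-5461 the rDNA-overlapping genes were lower in feeder cells instead (-0.35, -0.50 to -0.20). The other lists named here kept their sign. The difference between the classes in their CX-5461 to Control ratio had an interval that spanned 0 for 7 of 10 members. The ratio was lower in feeder than in ES-like cells for Polr1a (-0.71, -1.25 to -0.17) and Ttf1 (-0.58, -1.04 to -0.12) and higher for Polr1d (0.20, 0.09 to 0.31). This difference was computed for the members alone, so no share over all genes can be set beside these counts. These intervals hold counting error only and come from the same 2 libraries; after thinning, Polr1a in feeder cells, with 7 and 8 cells positive, had a ratio of 0.39.

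Other genes of the pathway were taken from lists chosen with earlier results of these data known. The other Pol I subunits Twistnb, Cd3eap and Znrd1 all lay below the median gene in ES-like cells, none by 0.5, with a median of -0.46, and Cd3eap, which is known as the partner of PAF53, went from 66.0 to 60.6 CPM (-0.48, -0.55 to -0.40). The SL1 partners Taf1a, Taf1c and Tbp also lay below it, 2 of 3 by at least 0.5, with a median of -0.51; Taf1a, at 162 and 166 UMIs, had a ratio of -0.58 (-0.90 to -0.26) and Taf1c one of -0.37 (-0.64 to -0.11). Of the 5 subunits shared by Pol I, II and III, 4 lay below and 2 were lower by at least 0.5, with a median of -0.50. Among these, Polr2l, a small shared subunit, had the lowest ratio (490 and 185 CPM, -1.76, -1.79 to -1.72). Polr2h lay at the median gene (0.01, -0.04 to 0.06). For these 3 lists the median was also negative on library totals, at -0.10, -0.15 and -0.14.

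Genes of the Pol II and Pol III lists lay on both sides of the median gene, as did the 10 members. The 7 Pol II subunits had a median of 0.10 but a summed ratio of -0.19, with Polr2b at 0.93 (0.82 to 1.04) and Polr2i at -1.34 (-1.39 to -1.30). Of 11 Pol III subunits, 8 lay below the median gene and none differed by 0.5 in either direction, and the median of -0.28 turned to 0.07 on totals. The members had nearly the same medians (-0.29, and 0.07 on totals), but 4 of 10 were lower by at least 0.5. The list of 10 regulators of rDNA transcription, 9 of them with enough UMIs, had a median of 0.08 and a summed ratio of -0.73. Of the 9, 4 lay below the median gene. Most of the sum was Ncl, at 1512 of 1967 CPM in Control and 1041 of 1514 CPM in CX-5461 (-0.89, -0.91 to -0.88). The lowest genes of the list were Myc, a transcription factor that drives ribosome biogenesis (162 and 76 UMIs, -1.71, -2.12 to -1.31), and Tcof1, which encodes the nucleolar protein treacle (151 and 100.36 CPM, -0.94, -1.0 to -0.89). Mycn, with more UMIs than Myc in both libraries, went the other way (908 and 1728 UMIs, 0.31, 0.19 to 0.43). The highest gene of the list was Sirt7, a nucleolar deacetylase (6.98 and 14.5 CPM, 0.70, 0.51 to 0.91). Annotated genes that overlap ribosomal RNA sequence, 3 of 5 of which are in the tables, were all lower: summed, they stood at 295 and 154 CPM in ES-like cells (-1.29, -1.33 to -1.25) and at 345 and 94.2 CPM in feeder cells (-2.03, -2.20 to -1.87). Since 3′ libraries capture polyadenylated RNA, this is no measure of rRNA synthesis. Targets of p53, listed to show whether cells responded, were above the median gene in 10 of 10 cases in ES-like cells, 8 by at least 0.5, with Cdkn1a, an inhibitor of cyclin-dependent kinases, at 128 and 495 CPM (1.60, 1.56 to 1.65). In feeder cells the p53 list had a median of 0.39, with 4 of 10 higher by at least 0.5 against 18.7% of all genes tested, 3 below the median gene and 1 lower by at least 0.5, Trp53inp1 (-0.60, -0.86 to -0.34), against 19.6%.

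**Figure D4:**
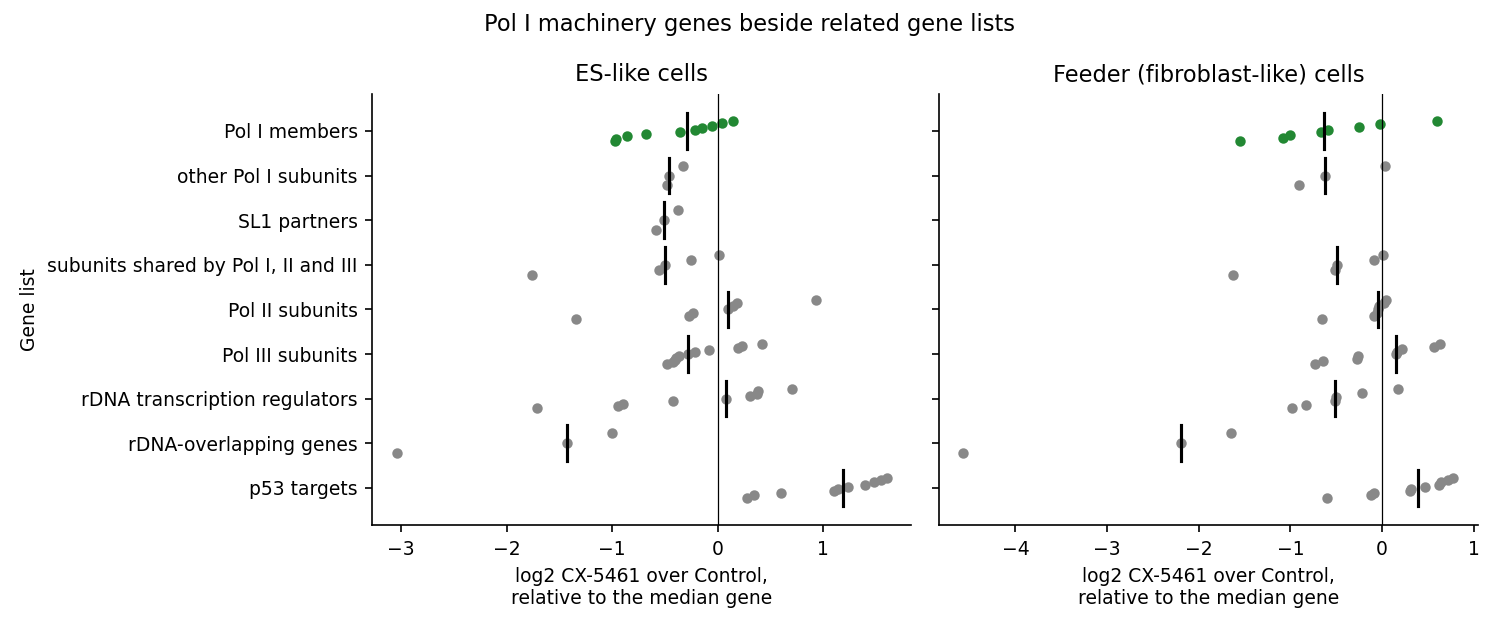
log2 ratio of CX-5461 over Control relative to the median gene (x axis) for each gene that passed the minimum of UMIs (points) in each list (y axis), in ES-like cells (left) and feeder cells (right), with black bars at the list medians and the 10 Pol I members in green. In ES-like cells the medians of the Pol I, SL1, shared subunit, Pol III and rDNA-overlapping lists lie left of 0. That of the p53 targets lies at 1.19.

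Within the CX-5461 library the members differed between clusters, which is a description, since clusters were formed from these cells' expression, although the members and the listed genes were kept out of the genes used for clustering. In the large ES-like cluster 5 (2871 cells) Rrn3 was at -0.97 and Ttf1 at -0.98 relative to the median gene and Control ES-like cells. Cluster 8 (512 cells, median 5974 UMIs, 15.6% mitochondrial) held Taf1d at 216 CPM (201 to 232) against 142 CPM in cluster 5 and 210 CPM in Control ES-like cells, and Taf1b at 27.8 CPM (22.6 to 34.0) against 13.5 CPM. In the shallow Control cluster 3 (1173 cells, median 2394 UMIs, 11.9% mitochondrial), which was left unnamed, Taf1d reached 497 CPM (474 to 521) and Ubtf 40.9 CPM (34.5 to 48.2). In cluster 3 Ttf1 stood at 107 CPM (96.3 to 118) and Taf1b at 19.6 CPM (15.3 to 24.8), both above Control ES-like cells. Ttf1 was at 58.9 CPM in cluster 8 against 43.3 CPM in cluster 5. Polr1d was lower in both shallow clusters, at 278 and 323 CPM. Higher Taf1d thus went with low depth and a high mitochondrial share in both libraries. Higher Taf1b and Ttf1 were not limited to shallow clusters in the CX-5461 library. There cluster 7 (median 12322 UMIs, 4.13% mitochondrial) held Taf1b at 37.0 CPM and Ttf1 at 63.3 CPM, and cluster 6 (median 13188 UMIs, 4.08%) held Ttf1 at 52.5 CPM. The part of depth and mitochondrial share in the levels was not tested. Cluster 6 (935 CX-5461 cells, led by Rgs14 and Robo3, ES markers at 0.906 of their level in all cells) was kept out of the ES-like class because Krt15, a keratin gene, was among its leading genes. In it Polr1a stood at 75.9 CPM (71.2 to 80.9) and Ubtf at 37.3 CPM (34.0 to 40.8).

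The small cluster 7 (123 CX-5461 cells, led by Rgs14 and Krt15, ES markers at 0.277) had the highest Polr1a and the lowest Ubtf of the 10 groups of cells formed by cluster and library. Polr1a was at 143 CPM (125 to 164) with a UMI in 99 of 123 cells, 3.59 times its level in Control ES-like cells on totals, and no cell held more than 7 UMIs. Ubtf was at 6.06 CPM (2.77 to 11.5), with 9 UMIs in 9 cells. Relative to the median gene and against Control ES-like cells, Polr1a was at 1.87 (1.65 to 2.07), Taf1b at 1.58 (1.15 to 1.98), Polr1e at 1.02 (0.59 to 1.43) and Ubtf at -3.37 (-4.50 to -2.45). The 87 2C-like cells of the CX-5461 library, which resemble cells of the early embryo, held 785 CPM (734 to 838) of the members, with Ubtf at 29.8 CPM (20.6 to 41.6) and Ttf1 at 35.0 CPM. The order of Polr1a and Ubtf therefore differed between clusters: Ubtf was higher than Polr1a in Control ES-like cells, the intervals overlapped in cluster 5, and Polr1a was higher in the ES-like cluster 8 (58.9 CPM, 51.1 to 67.6, against 42.3 CPM, 35.8 to 49.8) and in clusters 6 and 7.

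**Figure D5:**
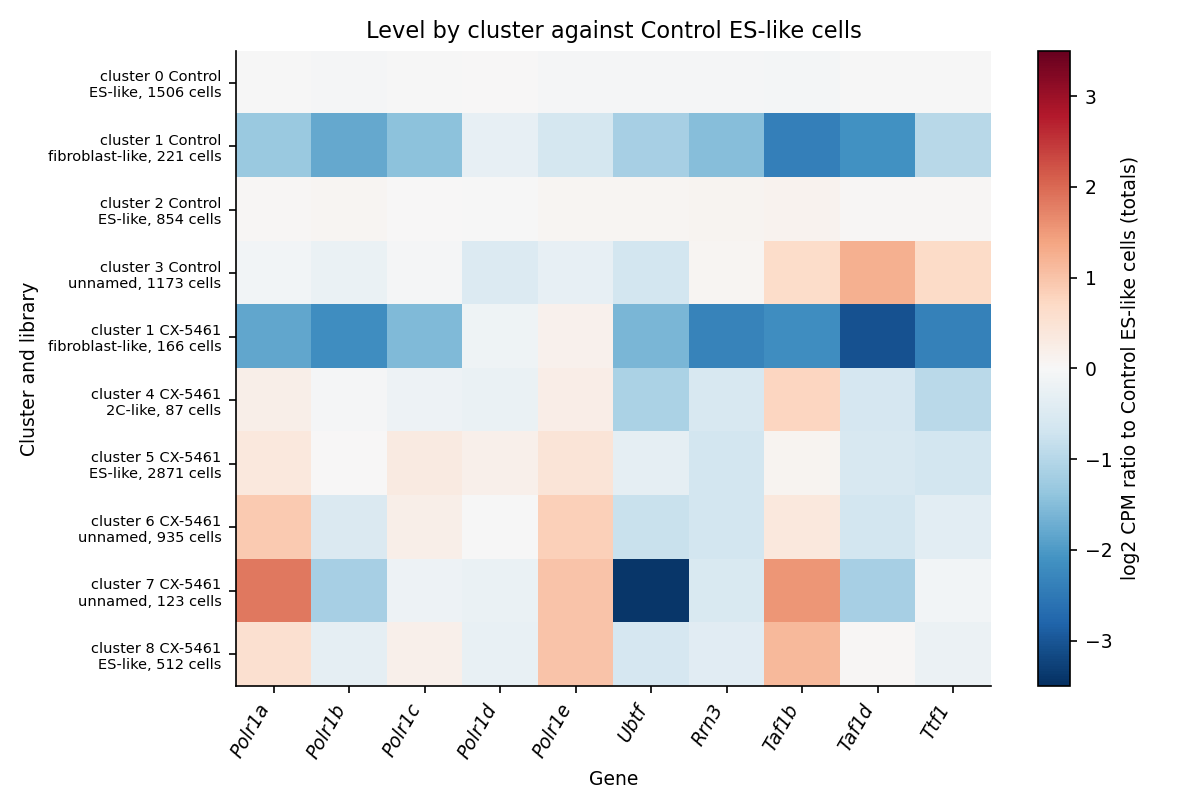
Heat map of each member (columns) in each cluster and library with at least 50 cells (rows), coloured by the log2 ratio of its CPM to that in Control ES-like cells on library totals, from -3.5 (blue) to 3.5 (red). Cluster 7 has the highest Polr1a and the lowest Ubtf, and the fibroblast-like rows are blue for most members.

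Cell cycle calls differed between the libraries, with 36.8% of Control and 17.8% of CX-5461 ES-like cells scored as S and 62.3% and 80.3% as G2/M. Within S cells Rrn3 stood at 58.0 and 41.5 CPM, Taf1d at 195 and 138 CPM and Ttf1 at 68.5 and 47.1 CPM. Within G2/M cells the same genes stood at 56.7 and 36.5 CPM, 217 and 150 CPM, and 67.5 and 43.9 CPM. The summed ratio was -0.28 (-0.32 to -0.24) within S cells and -0.40 (-0.42 to -0.37) within G2/M cells, with 8 and 9 of 10 members below the median gene. Across the 10 groups of cells formed by cluster and library, the genes whose level was most like that of the summed members, of 7339 genes with at least 1000 UMIs, were Hspe1 (Pearson r = 0.985), Gm9761 (0.983), Cela2a (0.983), Mylpf (0.983) and Chek1 (0.977). These groups share 2 libraries and differ in depth, and 2 of them are feeder cells.

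Some members share their place in the genome with other genes. The 3′ ends of Polr1e and Taf1d are overlapped on the opposite strand by Fbxo10 and Cep295, and exons of Taf1d are overlapped by 8 small nucleolar RNA genes on its own strand. UMIs that the authors marked as shared with another gene numbered 54 in Control and 14 in CX-5461 for Taf1b, over all barcodes, and 0 for the other members in both libraries.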

How the data were processed

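Single-cell RNA-seq of untreated and CX-5461-treated mES cells with feeder cells was read from 2 deposited tables, 1 per condition. Per the methods, the authors used 10x 3′ V2 libraries and an earlier droplet workflow, and the values they deposited are UMI counts without normalization. The submitters' processing notes name build mm10, the methods name Bowtie as the workflow's aligner, replaced by HISAT2 for repeats, and the annotation is not given in the sources used here. The authors' later analysis used Seurat 2.3.4, whose filters are not applied in the tables. The tables held 3838 and 4922 barcodes with 49610287 and 69841836 UMIs. Whether the serially numbered barcodes of the libraries share droplet sequences was not counted.

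Barcodes under 500 UMIs or above 0.2 mitochondrial UMIs were left out, as in the study's methods. The paper plots fewer cells of each condition than were kept here, and the reason was not tested. The kept cells were log-normalized to 10000 UMIs, and clustered with scanpy 1.11.5 (2000 variable genes, 16 principal components, 15 neighbours, Leiden resolution 0.5). Clusters were called ES-like when ES markers reached 0.5 of their overall level, and fibroblast-like or 2C-like with at least 3 markers among 50 leading genes. Shallow clusters without a marker of their own, and clusters with another class's marker among 10 leading genes and none of their own, stayed unnamed. Scrublet marked 1 and 4 cells (0.0266% and 0.0852%), which counts as not having worked, so no doublets were removed. UMIs were summed over cells of a class. Intervals are exact Poisson (levels), conditional binomial (ratios) and Clopper-Pearson (shares); those of differences between classes are normal approximations. Ratios were centred on the median gene with at least 200 (ES-like, between classes) or 50 (feeder) UMIs. The ratio per gene was checked on simulated counts. TMM factors came from edgeR 4.0.16. Positions are from GENCODE M21 on GRCm38, which 52480 of 54146 identifiers matched with version and 54079 without, and promoter windows from RefSeq on GRCm38.p6, without chromosome 18.

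All members were named, and for other lists at most the 2 highest and 2 lowest genes, plus Ncl, Mycn and the 5 genes most alike in pattern. The members and lists were chosen with earlier results of these data known.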

Additional observations from a re-analysis of the deposited data

How the results depend on the processing

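Ratios here are log2 of CX-5461 over Control unless said otherwise, and with 1 library per condition no replicate could be left out. No paired analysis was possible because the deposited columns carry no replicate number. In ES-like cells the summed ratio of the members, -0.40 as reported, was -0.44 with a TMM factor, -0.042 on library totals, -0.48 and -0.31 with the median taken over genes with at least 1 UMI in each library or at least 1000 UMIs, -0.31 after thinning to 3100 UMIs, -0.027 within the 21 and 65 cells scored as G1 and -0.28 within S cells. It was -0.42 with cluster 6 counted as ES-like and -0.11 on totals without mitochondrial and ribosomal protein genes, both chosen after seeing the data. The number of members below the centre, 8 as reported, was 5 on library totals, 5 without those genes, 6 after thinning and in G1 cells, 7 with 1000 UMIs, 9 with TMM, with at least 1 UMI and in G2/M cells, and 8 under the others. In feeder cells the summed ratio, -0.23 as reported, was -0.071 on totals, -0.14 on totals without those genes and 0.011 after thinning, where 5 members lay below the median gene. The ratio of feeder over ES-like cells, -0.65 in Control, was -1.18 with TMM, -0.90 on totals, -0.53 after thinning and -0.76 with ES RNA subtracted; in CX-5461, -0.57 as reported, it was -1.06, -0.93, -0.27 and -0.66. The sign turned for Polr1c in ES-like cells on totals (0.30), with 1000 UMIs (0.031), after thinning (0.039), in G1 cells (0.027) and without mitochondrial and ribosomal protein genes (0.23), for Polr1d on totals (0.14), in G1 cells (0.65) and without those genes (0.077), for Taf1b in ES-like cells on totals (0.21), after thinning (0.45) and without those genes (0.14), for Polr1a in ES-like cells with TMM (-0.0026), with at least 1 UMI (-0.039), in G1 cells (-0.20) and in G2/M cells (-0.026), for Polr1d in feeder cells on totals (0.15), after thinning (0.26) and without those genes (0.079), and for Polr1a in feeder cells after thinning (0.39). The cause was not tested. Rrn3, Ttf1, Taf1d and Ubtf kept a negative ratio in ES-like and feeder cells under every alternative run, but not always with an interval apart from 0: after thinning of feeder cells Rrn3 was at -0.22 (-2.03 to 1.49), Ubtf at -1.13 (-2.52 to 0.12) and Taf1d at -0.90 (-1.89 to 0.03), and in G1 ES-like cells Rrn3 was at -0.49 (-1.84 to 1.10), Ttf1 at -0.25 (-1.56 to 1.32) and Ubtf at -0.91 (-2.13 to 0.47). The interval of Polr1e in ES-like cells spanned 0 with TMM, with at least 1 UMI, with the stricter cell filter, without cluster 8, after thinning and within each of the phases. Leaving out UMIs shared with other genes was not run per class, since the tables give them over all barcodes. Feeder values rest on 221 Control and 166 CX-5461 cells, and their intervals were narrowest for Polr1d and widest for Polr1b and Taf1b.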
